A study of Mus musculus with 8 samples.

Results

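The peaks described here are the regions of N6-methyladenosine (m6A) that the authors listed for left ventricle after myocardial infarction (MI) against sham surgery. All rows of that table were taken: 116 of the 581 peaks in both tables of the series. They carried 77 named genes through 105 peaks, and 11 peaks had no gene ID. The libraries came from wild-type (WT) C57BL/6 mice, harvested 1 week after surgery. The sham libraries carry the same post-MI time label as the MI libraries. The 4 libraries of this comparison were sham input, sham MeRIP, MI input and MI MeRIP, with 1 library each. Neither group carried a transgene or a vector in the labels, and 200 µg of RNA went into each pulldown. How many hearts gave that RNA is not stated in the sources used here. The other table of the series compared infarcted hearts labelled aavFto and aavgnp.

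m6A is a methyl group that a nuclear enzyme complex places on adenosines of RNA within a short consensus sequence. Demethylases such as FTO take it off, and reader proteins that bind it act on splicing, translation and decay of the transcript. In MeRIP-seq an antibody against m6A pulls down RNA fragments, and a peak is a stretch where the pulldown exceeds the input. After an infarct, the ventricle loses cardiomyocytes, fibroblasts build a collagen scar, and surviving cardiomyocytes express genes of the fetal heart again.

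For each peak the authors' deposited table gave a fold enrichment over input, a log2 change between the groups, and a p-value and false discovery rate (FDR) for that change. The change was read as MI over sham, because the table's name puts MI first. No header states this, and if the sign ran the other way all directions given below would flip. A peak was called at an FDR of 0.05 or lower, and "rose" and "fell" are used of called peaks only. With 1 library per group there is no replicate check, so the authors' p-values compare these libraries and not the conditions. No depth, count or value of a single library was used here, so each result stands as a difference between groups. Coordinates count from 1 and use mm10. Gene annotation was limited to gene spans, with no exons, so peaks were not assigned to coding sequence or untranslated region.

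Sequence could be read for stretches of 2 called peaks, because RefSeq windows around annotated transcription starts (GRCm38.p6, the assembly of mm10) cover them. They are shown because these genes, Myh7 and Nppa, hold the most called peaks, 5 each. The first is 111 bases of a 116-base block, the 3′-most of the Myh7 peak that rose by 3.63. It is read on the Myh7 strand from chr14:54975960-54976070 (minus strand), in the start window of Gm31251, a long noncoding RNA annotated opposite to Myh7. The second is the first 20 bases of the Nppa peak that rose by 4.52, at chr4:148000752-148000771 (plus strand). Capitals mark matches to the m6A consensus, searched as 18 words of 5 letters: A, G or T, then A or G, then AC, then A, C or T.
Myh7: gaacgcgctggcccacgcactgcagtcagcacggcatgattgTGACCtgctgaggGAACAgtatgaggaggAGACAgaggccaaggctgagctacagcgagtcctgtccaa
Nppa: GGACAaaagctgagagagag
The Myh7 stretch held 3 matches on the transcript strand, at positions 43, 56 and 72 from its 5′ end, and 3 on the other strand. Of 32851 start-site windows cut to the same 111 bases, 81.8% held at least 1 match on that strand and 28.5% held at least as many. The Nppa stretch held 1 match, at position 1, and 24.1% of windows cut to the same 20 bases held one. For either strand these shares were 95.2% and 45.6%. A match is a description of the letters and does not show a methylated base.

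The called peaks lay in 8 named genes, and 4 more of them without an ID lay inside Nppa, 1 of the 8. Peaks rose in Col1a1, Col3a1, Nppa, Myh7, Ankrd1 and Mhrt, and fell in Myh6 and Atp2a2. Of the 116 listed peaks 17 were called (14.7%), 15 with a positive change (12.9%) and 2 with a negative one (1.72%). An unadjusted p under 0.05 was reached by 30 peaks (25.9%), and 8 of the 77 named genes had a called peak (10.4%). The called peak nearest to the threshold was in Myh7, whose FDR was 0.038, per the authors' deposited table. The next peak beyond it was in Sparc, with an FDR of 0.0851. At the other end 66 peaks shared the largest FDR of the authors' deposited table, 0.741. Positive changes made up 98 peaks: 44 from 1 to under 2, 22 from 2 to under 3, 14 from 3 to under 4, 12 from 4 to under 6, and 6 above that. Of the 18 negative changes 15 were smaller than 2 in size. No change was smaller than 1.01 in size, so peaks that differed less between the groups are not in the table. Transcript levels were not analysed here. A change of methylation, of transcript level and of cell make-up therefore cannot be told apart, nor can fewer cells of a type and less RNA per cell.

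**Figure D1:**
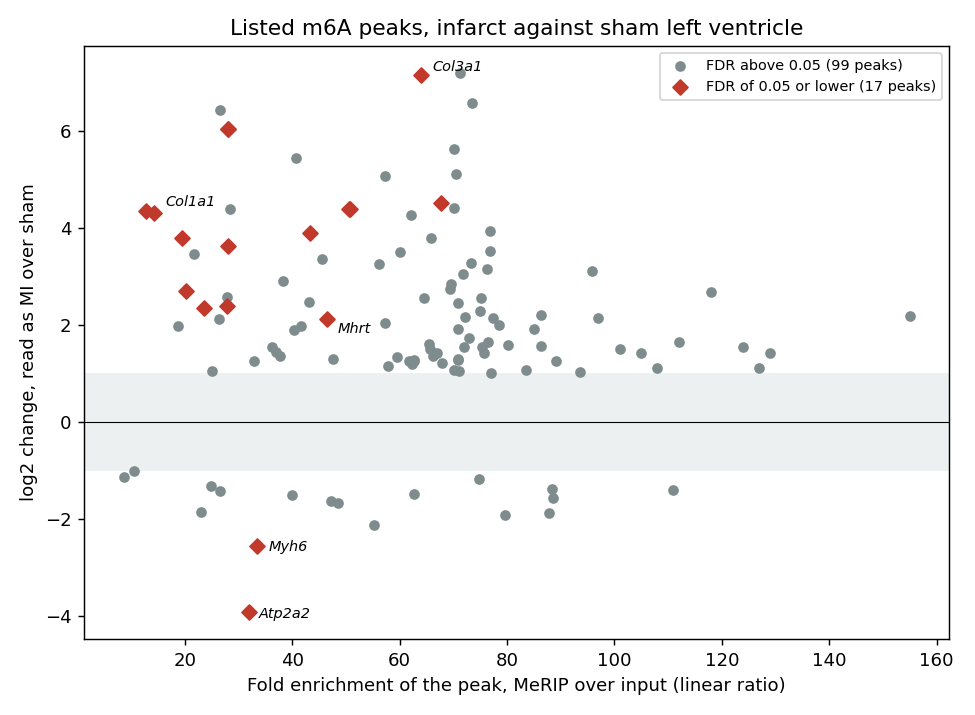
Each point is 1 of the 116 listed peaks, with its fold enrichment over input (linear) on the x axis and its log2 change, read as MI over sham, on the y axis. Red diamonds are the 17 called peaks, of which 13 have a fold enrichment under 50, and the grey band from -1 to 1 holds no peak.

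Called peaks were not those of highest enrichment. Their median fold enrichment was 28.1 (range 12.7 to 67.7), against 70.2 (8.59 to 155) for the 99 peaks not called. Among 39 peaks with a fold enrichment under 50, 13 were called and 29 were positive, and among the other 77, 4 were called and 69 positive. Called peaks were longer, with a median of 270 nt against 150 nt, and had lower enrichment p-values, with a median log10 p of -7.91 against -5.34. The weakest peaks were almost all positive. Of 58 peaks with an enrichment log10 p above -5.5, 56 were positive and 2 were called, one in Col3a1 and one in Myh7. Of the 10 peaks at -10 or lower, 7 were positive and 3 were called. Like enrichment went with unlike changes. The authors' deposited table gave a fold enrichment of 70.2 to peaks in Chchd10, Col1a2 and Myh7, with log2 changes of 1.07, 5.64 and 4.42. Across the 116 peaks, which share their 4 libraries, the Spearman correlation was 0.154 between enrichment log10 p and log2 change, and -0.829 between peak length and enrichment log10 p.

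Matrix genes had the highest median of the lists by role. Of 66 genes of extracellular matrix and collagen processing, 9 had a listed peak, all with a positive change, and 2 of them had a called peak. Each gene is given by its peak of lowest differential p throughout, and by that peak 88.3% of the 77 named genes were positive. Of the same 77 genes 8 had a called peak (10.4%), the share to set beside the called count of each list. The median of the 9 genes was 4.31, against 1.61 over all named genes. Col1a1, which encodes a chain of type I collagen, rose by 4.31 with an FDR of 2.09e-09, per the authors' deposited table, the lowest of any peak. That peak was 361 nt long with a fold enrichment of 14.3, and ended 1467 nt before the end of the gene. Its partner chain Col1a2 stood at 5.64 (FDR 0.318), per the authors' deposited table.

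Col3a1, the type III collagen chain, had 2 peaks. The called one rose by 7.17 (FDR 0.0141) and the other, 91 nt long, stood at 5.46 (FDR 0.328), per the authors' deposited table. Sparc, a collagen-binding matricellular protein, had 3 peaks without a call. Its 476 nt peak over 5 blocks stood at 3.26 (FDR 0.0851), per the authors' deposited table, and its short peaks of 60 and 90 nt at 6.45 and 5.08. The shorter Sparc peaks thus had the larger changes. Postn (periostin) stood at 6.58 (FDR 0.2) and Bgn, the proteoglycan biglycan, at 5.12 (FDR 0.368), per the authors' deposited table. Serpinh1, the collagen chaperone of the endoplasmic reticulum, had 2 peaks at 4.28 and 3.94, per the authors' deposited table, with FDRs of 0.518 and 0.617. Col4a1, a chain of basement membrane collagen, had 3.80 and 2.46 at its 2 peaks, and Hspg2, which encodes perlecan of the same membranes, had 2.85, per the authors' deposited table. None of these passed the FDR. The 4 fibroblast markers with a listed peak, of 8, were Col1a1, Col1a2, Col3a1 and Postn, with a median of 6.11. All 4 also belong to the matrix list, so their median is drawn from the same values and is no separate reading. What fibroblasts contributed to the changes of the matrix genes was not tested.

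**Figure D2:**
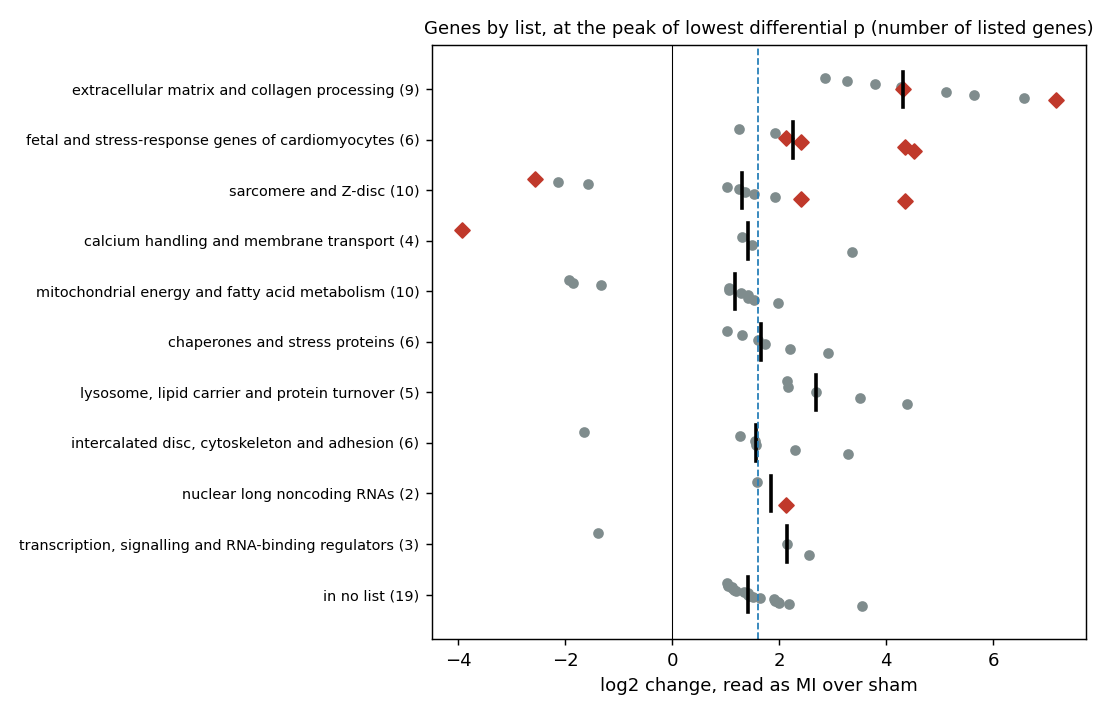
Each point is a named gene, placed by the log2 change (read as MI over sham) of its peak of lowest differential p. Rows are the lists by role with at least 2 listed genes and the genes in no list, and the cell type marker lists are not drawn. Red diamonds have that gene's peak called, black bars are list medians and the dashed blue line is the median of all 77 named genes, 1.61; the matrix list, with a median of 4.31, has no gene below 2.85.

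The list of fetal and stress-response genes of cardiomyocytes held most of the called peaks that had a gene ID. Of 23 in the list 6 had a listed peak. A called one was held by 4 of these, Nppa, Myh7, Ankrd1 and the antisense RNA Mhrt, against 8 of all 77 named genes (10.4%). All 6 were positive, as were 88.3% of all named genes, and their median was 2.26. The called Mhrt peak overlapped a called Myh7 peak by 102 nt on the other strand, so its call is not separate from that of Myh7. Nppa encodes atrial natriuretic peptide, a hormone of the atrium that the stressed ventricle expresses again. Its named peak, 830 nt over 3 blocks, was the longest of the table. It rose by 4.52 with a fold enrichment of 67.7 and the lowest enrichment p, at a log10 of -14.00, per the authors' deposited table. It began 30 nt after the annotated start of the gene and reached the gene's end.

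Inside Nppa lay 5 more peaks that carry no ID. At its 5′ end a 149 nt peak on the plus strand and a 148 nt peak on the minus strand both rose by 6.06, per the authors' deposited table. In the middle, peaks of 385 nt on the plus and 383 nt on the minus strand both rose by 4.39, per the authors' deposited table. The fifth, 119 nt towards the 3′ end, had the highest change listed, 7.21, with an FDR of 0.16, per the authors' deposited table. All of these overlapped the named peak. The 6 peaks are therefore 1 locus and not separate observations. The pair at the 5′ end also shared a fold enrichment of 28 and an unadjusted differential p of 0.00115, per the authors' deposited table. The middle pair shared an unadjusted differential p of 9.77e-05. Whether reads were counted by strand is not stated, so reads of Nppa and of an antisense RNA cannot be told apart here. The minus-strand peaks therefore do not show an antisense RNA.

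**Figure D3:**
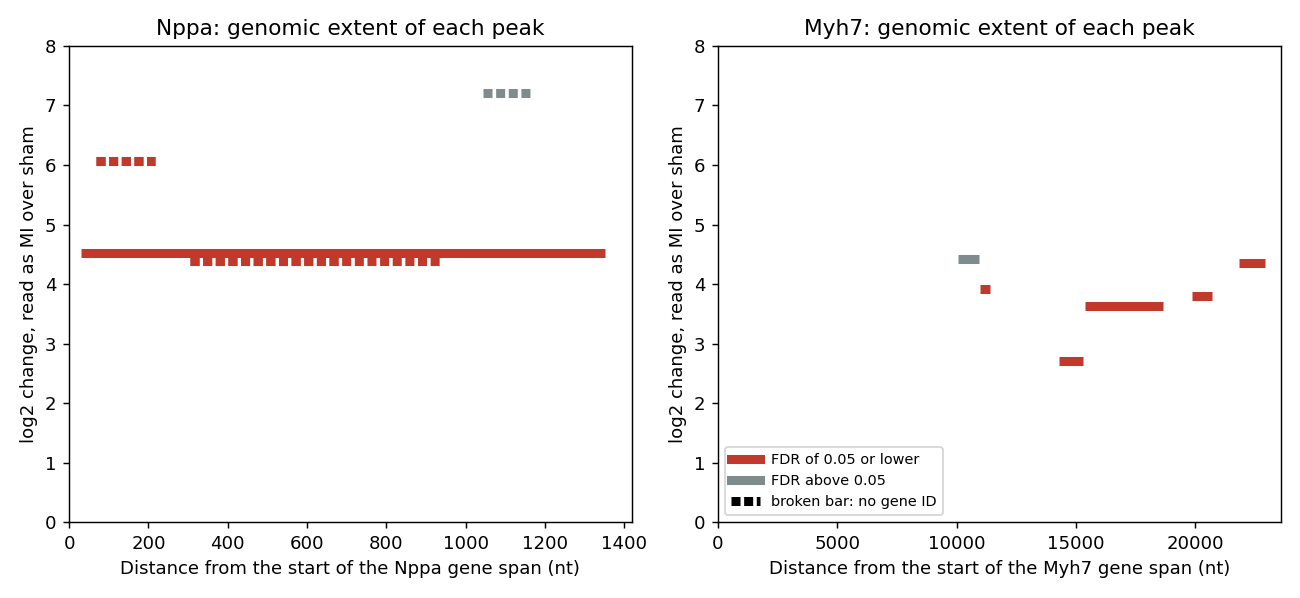
Each bar is a listed peak in Nppa (left) or Myh7 (right), drawn over its genomic extent in nt from the start of the gene span (x axis) at its log2 change, read as MI over sham (y axis). Red bars are called, broken bars have no gene ID, and each red broken bar at 6.06 and 4.39 is a pair on opposite strands; the Myh7 peaks begin 10073 nt or more after the gene's start.

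Myh7 encodes the slow myosin heavy chain, which the mouse ventricle uses before birth. It had 6 peaks, 5 of them called, and the one nearest to the gene's start began 10073 nt after it. From the 5′ to the 3′ side the called changes were 3.91, 2.70, 3.63, 3.80 and 4.35, per the authors' deposited table. The uncalled sixth, at the 5′ side, stood at 4.42 (FDR 0.497) over 91 nt, per the authors' deposited table. All 6 thus lay between 2.70 and 4.42. Other annotated RNAs share the locus. Mhrt, a long noncoding RNA antisense to Myh7, rose by 2.13 (FDR 0.0363) at a 326 nt peak, per the authors' deposited table. It overlapped the Myh7 peak at 3.80 by 102 nt on the other strand. Since counting of reads by strand is not stated, reads of Mhrt and of Myh7 cannot be told apart in that overlap. All 6 Myh7 peaks had blocks within the span of Mhrt or Gm31251. In all, 9 listed peaks lay in the span of another gene in this way.

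Ankrd1, a stretch-responsive ankyrin repeat protein of the sarcomere and nucleus, had 3 peaks. Peaks of 449 nt on the 5′ side and 210 nt on the 3′ side, 120 nt before the gene's end, rose by 2.40 and 2.36, per the authors' deposited table. The peak between them, of 120 nt, stood at 3.47 (FDR 0.233), per the authors' deposited table. Xirp2, an actin-binding protein of the intercalated disc, stood at 1.93 and Csrp3, a Z-disc protein, at 1.25, per the authors' deposited table. Neither was called.

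Sarcomere genes went both ways. Of 57 in the list 10 had a listed peak, 7 positive and 3 negative, with a median of 1.31, and those with a called peak were Myh7, Ankrd1 and Myh6. Myh7 and Ankrd1 also belong to the fetal and stress-response list, so their calls are counted in both. Myh6 encodes the fast myosin heavy chain of the adult mouse ventricle, and its single peak fell by 2.56 (FDR 0.0269), per the authors' deposited table. That peak spanned chromosome 14 from 54963630 to 54965476, over 3 blocks, 2541 nt after the start of the gene span. The Myh6 peak was thus centred at 13.3% of its gene span, and the Myh7 peaks from 43.9% to 93.5% of theirs. The 2 genes are close paralogs, and whether reads were split between them was not tested. Mybpc3, cardiac myosin binding protein C, had 3 peaks of 241, 390 and 390 nt, at -2.13, -1.51 and -1.87, per the authors' deposited table. The last of these ended 60 nt before the gene's end. All 3 were negative and none was called, with FDRs from 0.643 to 0.731. Myom1, an M-band protein, stood at -1.58, per the authors' deposited table. The other members were positive and uncalled: the authors' deposited table gave 1.54 and 1.36 for Actn2 (the Z-disc cross-linker alpha-actinin), 1.37 for Tpm1 (tropomyosin) and 1.02 for Cryab. Of 12 cardiomyocyte markers 4 had a listed peak: Nppa and Myh7 positive, Mybpc3 and Myh6 negative.

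Calcium handling genes were few: 4 of 37 had a listed peak, 3 positive and 1 negative, with 1 called. Atp2a2 encodes SERCA2, the pump that returns calcium to the sarcoplasmic reticulum. Its 211 nt peak, on chromosome 5 from 122469635 to 122471198, fell by 3.93 (FDR 0.0288), per the authors' deposited table, the lowest change of all. The other Atp2a2 peak lay 3′ of it, was 750 nt long over 5 blocks and stood at -1.18 (unadjusted p 0.049, FDR 0.328), per the authors' deposited table. Hrc, a histidine-rich calcium-binding protein of the same store, had peaks of opposite sign. The authors' deposited table gave -1.67 to its 5′ peak of 301 nt and 1.31 to a 601 nt peak further on. Casq2, the calcium store protein calsequestrin, stood at 3.36 (unadjusted p 0.0166, FDR 0.163), per the authors' deposited table. Popdc2, a membrane protein that binds cyclic AMP, had 1.22 and 1.5, per the authors' deposited table. The median of this list was 1.41, but -0.08 when each gene was given by its peak of largest change.

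Genes of mitochondrial energy and fatty acid use had no called peak. Of 139 in the list 10 had a listed peak, 7 positive and 3 negative, with a median of 1.18. Ogdh, a subunit of the oxoglutarate dehydrogenase of the citric acid cycle, stood at -1.93, per the authors' deposited table. Lpl, the lipase that frees fatty acids from lipoproteins, had a named peak at -1.85 and an overlapping one without an ID at -1.42, per the authors' deposited table. Cox7a1, a subunit of cytochrome oxidase, stood at -1.33, per the authors' deposited table. Atp5b, the catalytic beta subunit of ATP synthase, had peaks of both signs. From 5′ to 3′ its peaks of 538, 299 and 358 nt stood at -1.40, -1.48 and 1.54, per the authors' deposited table, with FDRs of 0.741. The other positive members were Fabp4, a fatty acid carrier of fat cells, macrophages and endothelium, at 1.98 (FDR 0.366), and Acot13 and Cox6a2, both at 1.42, per the authors' deposited table. Ndufb8, Ndufb9 and Chchd10 stood between 1.07 and 1.28. No gene of the glycolysis list had a listed peak.

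**Figure D4:**
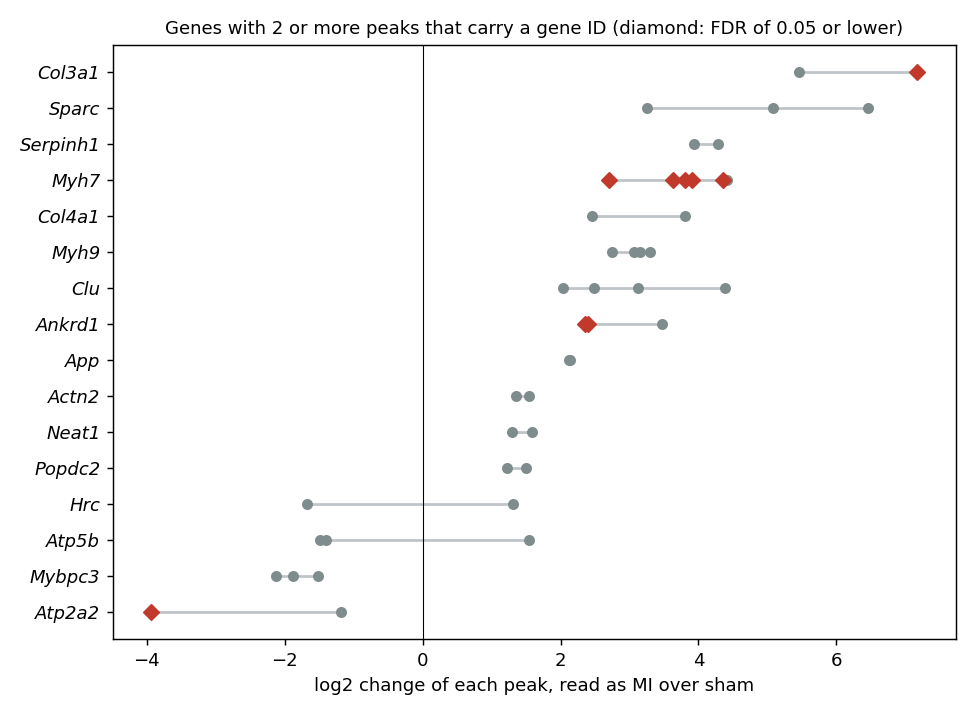
Each row is 1 of the 16 named genes with 2 or more peaks that carry a gene ID (peaks without an ID are not drawn), each point a peak at its log2 change (read as MI over sham), and the line joins the lowest and highest. Red diamonds are called; only Hrc and Atp5b among these genes have peaks on both sides of 0.

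Among the 16 genes with more than 1 named peak, 12 had positive changes at every peak, Atp2a2 and Mybpc3 had negative ones at every peak, and Hrc and Atp5b had both. The highest and lowest peak of a gene differed by a median of 1.23 (range 0.02 to 3.19) on the log2 scale. The widest range was in Sparc, the narrowest in App. The other 61 genes had a single named peak; among them, Nppa and Lpl also held peaks without an ID.

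Chaperones and stress proteins had 6 listed genes of 43, all positive, none called, with a median of 1.67. Hsp90ab1, a cytosolic HSP90, stood at 2.91 (FDR 0.435), and its counterpart of the endoplasmic reticulum, Hsp90b1, at 1.73, per the authors' deposited table. The small heat shock proteins Hspb7 and Hspb6 stood at 2.20 and 1.30, and Hspa5, the chaperone BiP, at 1.61, per the authors' deposited table. The list of lysosome, lipid carrier and protein turnover genes had 5 of 42, all positive and none called, with a median of 2.68. Clu, the secreted chaperone clusterin, had 4 peaks, which from 5′ to 3′ stood at 2.04, 3.12, 2.48 and 4.39, per the authors' deposited table. The last, 60 nt long and 89 nt before the gene's end, had an unadjusted p of 0.0224. Apoe, the lipoprotein ligand apolipoprotein E, stood at 3.51 (unadjusted p 0.00891, FDR 0.1), per the authors' deposited table. Cst3, a secreted inhibitor of cathepsins, stood at 2.68, the protease Ctsd at 2.16 and App, the amyloid precursor, at 2.14 and 2.12, per the authors' deposited table.

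Cytoskeletal and adhesion genes had 6 listed of 60, 5 positive and 1 negative, none called, with a median of 1.56. Myh9, the non-muscle myosin IIA heavy chain, had 4 short peaks near the 3′ end of its gene, at 3.29, 2.75, 3.06 and 3.15, per the authors' deposited table. Tmsb4x, the actin-binding peptide thymosin beta 4, stood at 2.30, per the authors' deposited table. Tuba4a (an alpha-tubulin), Nrap (a myofibril assembly protein) and Ahnak stood at 1.57, 1.55 and 1.26, per the authors' deposited table. Dsp, the desmosomal plaque protein desmoplakin, stood at -1.64, per the authors' deposited table. Markers of other cells were few. Endothelial Eng and Cdh5 stood at 2.56 and 1.65, and the pericyte receptor Pdgfrb at 2.58, all with an FDR of 0.741, per the authors' deposited table. None of the macrophage (6), neutrophil (3), lymphocyte (3) or erythroid (4) markers had a listed peak, which says nothing of peaks with smaller changes.

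The list of transcription, signalling and RNA-binding regulators had 3 of 75 listed, 2 positive and 1 negative, none called, with a median of 2.15. Jund, an AP-1 transcription factor subunit, stood at 2.15 and the co-repressor Tle5 at -1.39, per the authors' deposited table. Eif4g1, the translation initiation scaffold, was the 1 listed gene of the 36 in the translation list. It stood at 2.56 (FDR 0.701), per the authors' deposited table. Of 14 long noncoding RNAs 2 had a named peak, Mhrt, whose called peak overlapped one of Myh7, and Neat1, with a median of 1.85. Neat1, which builds nuclear paraspeckles, had 5 peaks close to its 5′ end, with or without an ID. Their changes lay between 1.26 and 1.58, per the authors' deposited table, and 1 of them was on the opposite strand. Each overlapped another of the 5, by 43 to 181 nt, so they are not separate observations. At Rn18s-rs5, a ribosomal RNA pseudogene on chromosome 17, peaks of 121 and 61 nt without an ID stood at -1.01 and -1.14, per the authors' deposited table. Their fold enrichments of 10.5 and 8.59 were the lowest of all listed peaks, and their unadjusted p-values were 0.0229 and 0.0102. No gene of the cell cycle or m6A enzyme and reader lists had a listed peak.

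The 19 genes in none of the lists were all positive and uncalled, with a median of 1.42. The lists are not complete, and these genes include Eif3a, a translation initiation factor subunit, and Ndufb7, a subunit of mitochondrial complex I. Itgb5, the integrin beta 5 chain, was highest at 3.54 (FDR 0.695), per the authors' deposited table. Ptms, the small acidic protein parathymosin, stood at 2.19 and had the highest fold enrichment, 155, per the authors' deposited table. Next came Rrp1, a nucleolar protein, at 2.0, Fth1, the ferritin heavy chain, at 1.98, the splicing protein Snrnp70 at 1.93 and the ribosome-binding protein Rrbp1 at 1.91, per the authors' deposited table. Golga4, Anp32b, Eif3a, Cyb5r3, Kif1c, Arglu1, Cdk11b, Art1, Anp32a, Ndufb7, Crip2, Bag1 and Ndrg2 stood between 1.65 and 1.03, per the authors' deposited table. Strong enrichment without a called change was seen in Cyb5r3, a cytochrome b5 reductase, and Ndufb7. Their fold enrichments were 129 and 127, and their changes 1.42 and 1.12, per the authors' deposited table.

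The peaks were short. Their summed block length had a median of 150.5 nt and ranged from 60 to 830 nt. For 100 of the 116 peaks (86.2%) it was within 1 nt of a multiple of 30, and 19 peaks had the minimum of 60 or 61 nt. These lengths fall on a grid and do not resolve single adenosines. A single block made up 67 peaks and 49 (42.2%) had 2 to 5 blocks. Of the single-block peaks 5 were called, of those with 2 blocks 6 of 24, with 3 blocks 4 of 16, with 4 blocks 2 of 6 and with 5 blocks 0 of 3. The 5-block peaks were in Atp2a2, Sparc and Ptms.

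**Figure D5:**
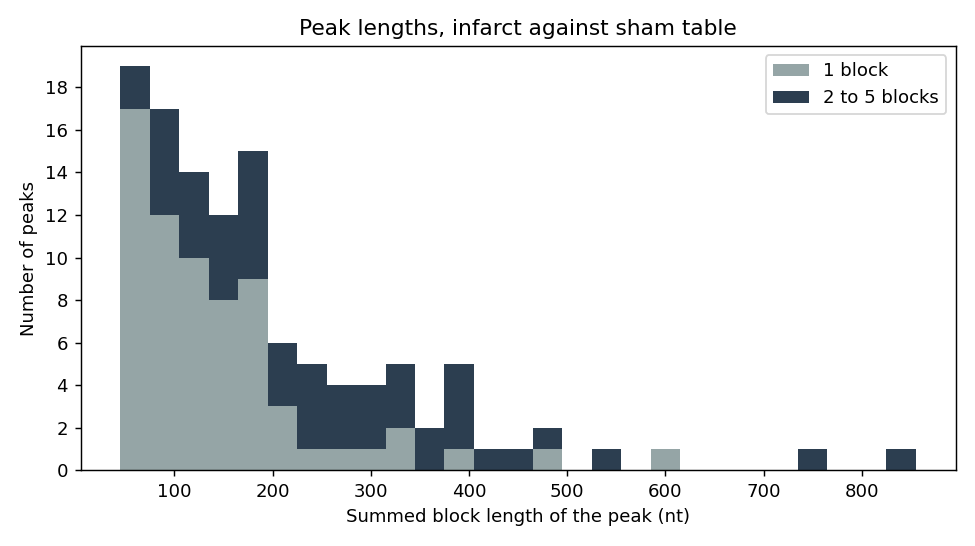
Histogram of the summed block length of the 116 listed peaks in nt (x axis, bins of 30) against the number of peaks (y axis), with peaks of 1 block in grey and of 2 to 5 blocks in dark blue. The leftmost bin holds the 19 peaks of 60 or 61 nt, and Nppa, at 830 nt, is the rightmost.

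Most peaks lay towards the 3′ end of their gene. The peak centre was beyond 80% of the gene span in 65 peaks (56%), and 12 were in the first 20%. Spans include introns, so this is a position on the genome and not along the transcript. Of the 65 peaks 57 were positive and 5 called, and of the other 51, 41 were positive and 12 called. The called peaks of the 3′ group lay in Col1a1, Ankrd1, Myh7 and Mhrt. Peaks that ended close to the gene's end included those of Ndufb7, at 0 nt, Mybpc3, at 60 nt, and Apoe, at 90 nt.

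The same regions were mostly listed in the table of aavFto against aavgnp, which was made from other libraries. By overlap of at least 1 base on the same strand, 109 of the 116 peaks (94%) had a counterpart there, 97 of its 465 peaks (20.9%). All 17 called peaks had one. The aavFto comparison lists changes down to 0.00 in size, with 131 of its 465 peaks at 1 or more. The MI comparison lists none under 1.01, so shares of listed or called peaks are not alike between them. The 7 peaks without one lay in Actn2, Arglu1, Cdk11b, Lpl (2), Ndufb9 and Sparc. The counterparts could be far longer. The Col1a1 peak of 361 nt fell in one of 3923 nt, and the Col3a1 peaks in one of 3082 nt. Their changes with aavFto were -0.18 and -0.67, per the authors' deposited table, against 4.31 and 7.17 after MI. These changes were read as aavFto over aavgnp, which no header states. If the sign of only 1 comparison ran the other way, like and unlike signs given here would swap. The named Nppa peak had a counterpart of the same 830 nt at -0.36, and Postn one at -0.03, per the authors' deposited table, against 4.52 and 6.58 after MI. For Casq2 the authors' deposited tables gave -1.07 with aavFto and 3.36 after MI. For Cox7a1 they gave 1.63 and -1.33. Both peaks that fell after MI stood on the other side of 0 there: Atp2a2 at 2.39 (FDR 0.713) and Myh6 at 2.25 (FDR 0.596), per the authors' deposited table. Other counterparts had the same sign in both comparisons. Called peaks of Myh7 at 3.91 and Ankrd1 at 2.36 after MI stood at 1.47 and 1.09 there, per the authors' deposited table. These were the largest for called peaks of the 2 genes. The other called Myh7 peaks had counterparts at 0.60 or 0.28, the other called Ankrd1 peak one at 0.86 and Mhrt one at 0.03. Atp5b (1.54 after MI) and Ogdh (-1.93 after MI) stood at 2.71 and -0.91. The pairs named are examples, and pairs of like and unlike sign were not counted. In that comparison 8 of the 465 peaks were called (1.72%), and 2 of these were counterparts of peaks described here. One is a Mybpc3 peak of 3564 nt at 1.04 (FDR 0.0309), per the authors' deposited table, which covers the Mybpc3 peaks at -2.13 and -1.51 after MI. The other is a Rn18s-rs5 peak at 1.33 (FDR 3.02e-05), per the authors' deposited table, over the peak at -1.14 after MI. All 3 of those MI peaks were uncalled. The other aavFto values named here had FDRs of 0.596 or more, and differences between the tables were not tested.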

How the data were processed

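MeRIP-seq measured m6A in poly(A)-selected, fragmented RNA of left ventricle, with 50 bp single reads, per the labels' protocols. The submitters' processing notes name STAR 2.5.3a and the build mm10. Which peak caller, thresholds and library scaling were used is not stated in the sources used here. Per the file headers, the deposited values are an enrichment p-value per peak (score), enrichment p and FDR and differential p and FDR as log10, a fold enrichment as a linear ratio, a log2 change and a number of blocks. No library totals were used, so depth is unknown.

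For printing, p and FDR were computed back from their log10. All 105 gene IDs matched a RefSeq gene table of GRCm38.p6, and peaks without an ID were placed by position. Lists are described by counts and medians, with no test of their own, at each gene's peak of lowest differential p. Peaks sharing at least 1 base were merged into loci as an alternative. The text names every gene with a listed peak, which is wider than the planned rule. Members and lists were chosen with earlier results of these data known. Overlap, merging and gene summaries were tested on simulated data. Python 3.11.15, pandas 2.3.3, numpy 2.4.6 and scipy 1.17.1 were used.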

Additional observations from a re-analysis of the deposited data

How the results depend on the processing

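The number of called peaks, 17, was 9 at an FDR of 0.01, all positive, and 30 at an unadjusted p under 0.05, 25 positive and 5 negative. It was 8 in genes in place of peaks and 10 without Myh6, Myh7 and Mhrt. It stayed within 1.5 times of 17 at an FDR of 0.1 (18), with a change of at least 2 in size (17), with overlapping peaks merged (12) and with named peaks only (13). The share of positive peaks, 84.5% (exact 95% interval 76.6 to 90.5, counting error only), was 94.7% for changes of at least 2 in size and 70% for the 10 peaks at an enrichment log10 p of -10 or lower. In those peaks the median change was 1.42 in place of 1.92. The median length of the called peaks was 270 nt in place of 150.5. By the peak of largest change the median of the calcium list turned from 1.41 to -0.08, through Hrc, whose peaks have opposite signs. No other list median changed sign under the alternatives tried. No paired analysis was possible because each group has 1 library, and for the same reason no library could be left out. Sequencing depth is unknown, so what it limits could not be stated.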
